A study of Mus musculus with 12 samples.

Results

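Gene expression was compared between 3 tumors injected with ADU-S100 and 3 tumors injected with HBSS, which are 6 of the 12 tumors of the study, chosen by their treatment label. All were subcutaneous TRAMP-C2 tumors, grown from a mouse prostate cancer cell line in the right flank of male C57BL/6J mice of 6 to 8 weeks. At about 200 mm3, tumors received intratumoral injections on days 0, 2 and 4, either 50 µg ADU-S100 in a volume of 50 µl or the same volume of HBSS, the buffered saline that served as vehicle, and they were collected on day 6. Tumors were divided in parts at collection, and which part was sequenced was not given. Each library held bulk RNA of dissociated tumor tissue, so host and tumor cells were read together. Fewer cells of a type therefore cannot be told apart from less RNA per cell. The tumors are called by their label names, 17LL, 18R and 22LR for ADU-S100 and 19, 22R and 22LL for HBSS, and values of single tumors are given in that order. The number 22 recurs in both groups, and what it marks was not given.

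ADU-S100 is a cyclic dinucleotide that binds STING, a membrane protein that relays the detection of cytosolic DNA. Active STING recruits the kinase TBK1, which turns on the factor IRF3, and it also feeds NF-kappaB, so that type I interferon and inflammatory cytokines are made. Interferon then acts on neighboring cells through the receptor IFNAR and the complex ISGF3, which binds the interferon-stimulated response element (ISRE) in promoters. Pathways outside immunity are also tied to this response by background knowledge. The enzyme CH25H is interferon-induced and makes an oxysterol that holds back the cholesterol-synthesis factor SREBP2, p53 and p21 arrest damaged cells, and the factors ATF4 and CHOP are made in the integrated stress response, in which cells slow protein synthesis.

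Total counts were 69497371, 103700199 and 89845392 in ADU-S100-treated tumors and 61269250, 75857377 and 89374663 in HBSS-treated tumors. Over log2 CPM (counts scaled to library size after TMM normalization), tumors of a group correlated at Pearson's r of 0.980 to 0.988 and tumors of different groups at 0.953 to 0.973, and the biological coefficient of variation was 0.242. The prostate epithelial label was checked against its markers. Krt8, a keratin of simple epithelia, had 4.92, 3.48 and 2.61 CPM in ADU-S100-treated tumors, against 6.37, 6.77 and 146 CPM in HBSS-treated tumors, and Epcam, an epithelial adhesion molecule, had 0.429, 0.310 and 0.166 CPM in ADU-S100-treated tumors, against 0.310, 0.431 and 0.564 CPM in HBSS-treated tumors, so that these epithelial markers were near 0 or low in most tumors. HBSS tumor 22LL stood apart with its Krt8 level and with Yap1, a growth coactivator, which had 124, 120.3 and 132 CPM in ADU-S100-treated tumors, against 130.2, 144 and 5105 CPM in HBSS-treated tumors. ADU-S100 tumor 17LL stood apart in its content of muscle and mitochondrial RNA. Genes of skeletal muscle fibers took 0.333, 0.0911 and 0.0322% of counts in ADU-S100-treated tumors and 0.00673, 0.00941 and 0.0103% in HBSS-treated tumors, and transcripts of the mitochondrial genome took 2.35, 1.00 and 1.25% against 1.06, 0.892 and 1.21%. Lists of genes below are given with their left-out counts, the numbers of genes that passed when 17LL, 18R, 22LR, 19, 22R or 22LL, in this order, was left out.

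The test was edgeR's quasi-likelihood test with Benjamini-Hochberg adjustment over 18911 genes. A gene passed the test at an adjusted p under 0.05, and a DEG also had an absolute log2 fold change above 1, where a positive value means a higher level with ADU-S100. The DEGs numbered 667 (3.53%), of which 520 (2.75%) had a higher and 147 (0.777%) a lower level with ADU-S100. With no fold threshold, 714 genes (3.78%) were higher and 456 (2.41%) lower. The higher genes that passed had a median fold of 3.11 and the lower genes 1.67, so that 194 of the 714 higher genes but 309 of the 456 lower genes differed by less than 2-fold. Every ADU-S100-treated tumor lay above every HBSS-treated tumor for 3151 genes (16.7%) and below for 2817 genes (14.9%). These shares are the background for the lists of genes below, in which higher and lower always refer to ADU-S100-treated tumors. Without HBSS tumor 22LL 335 DEGs were called, without 19 or 22R 330 or 325, and without ADU-S100 tumor 17LL 624. The same contrast in a fit of all 12 tumors of the study gave 0 DEGs with edgeR (1856 genes at an unadjusted p under 0.05) and 306 with DESeq2, and on the 6 tumors DESeq2 called 1123 DEGs and limma voom 585.

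The interferon arm is shown first through its promoters, because the letters of the ISRE can be read there and give the direct sequence context of the response. Promoters of 300 bases, 250 before to 50 after the start site, were taken from RefSeq on the build GRCm38.p6 for 12603 of the tested genes. The ISRE core was searched as GAAANNGAA on both strands, and it was in 9.76% of all 27025 promoters, in 87 of 369 promoters of higher DEGs (23.6%), in 13 of 93 promoters of lower DEGs (14%) and in 17 of 29 promoters of the type I interferon-stimulated list (58.6%). The kappaB site, searched as GGGANTTTC, was in 1.29% of all promoters, in 13 of those of higher DEGs (3.52%) and in 0 of those of lower DEGs. An ATF4 site, TGATGNAAT, was in 1.08% of all promoters, in 6 of the higher (1.63%) and in 0 of the lower. The GAS site of STAT dimers, TTCCNGGAA, was in 1.35% of all promoters, in 10 of the higher (2.71%) and in 2 of the lower (2.15%). A sterol regulatory element, TCACNCCAC, which was added after results had been seen, was in 1.44% of all promoters and in 1.08% of both groups of DEGs. Among tested genes the shares were 8.96% (ISRE core), 1.3% (kappaB), 0.619% (ATF4), 1.51% (GAS) and 1.45% (sterol). With no fold threshold, the ISRE core was in 114 of 520 promoters of higher genes (21.9%) and 29 of 334 of lower genes (8.68%). The sterol element was then in 6 of the higher (1.15%) and 7 of the lower (2.1%). These matches are descriptions of letters, not sites shown to be bound. In the 4 promoters below, each of a gene that passed the test, only 1 motif chosen for each gene stands in capitals. Other motifs were not marked, and the B2m promoter also holds a match of the ISRE core, gaaactgaa, in lower case. Isg15 (chr4:156200769-156201068, minus strand) has 3 matches of the ISRE core that overlap each other from base -78 on, B2m (chr2:122147437-122147736, plus strand) has a kappaB match from base -125, Nupr1 (chr7:126625421-126625720, minus strand) an ATF4 match from -111 and Hmgcs1 (chr13:119690101-119690400, plus strand) a sterol element from -137.
Isg15 promoter: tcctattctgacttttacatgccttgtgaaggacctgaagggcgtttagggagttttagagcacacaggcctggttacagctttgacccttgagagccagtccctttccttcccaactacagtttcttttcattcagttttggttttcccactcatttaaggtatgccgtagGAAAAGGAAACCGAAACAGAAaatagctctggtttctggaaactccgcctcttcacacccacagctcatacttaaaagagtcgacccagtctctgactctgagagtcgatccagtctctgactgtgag
B2m promoter: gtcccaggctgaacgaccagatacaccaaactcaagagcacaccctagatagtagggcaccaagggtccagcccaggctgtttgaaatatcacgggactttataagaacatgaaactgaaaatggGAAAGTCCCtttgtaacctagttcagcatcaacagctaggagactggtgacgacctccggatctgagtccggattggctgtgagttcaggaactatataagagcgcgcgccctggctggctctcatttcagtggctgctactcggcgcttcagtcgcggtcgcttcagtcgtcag
Nupr1 promoter: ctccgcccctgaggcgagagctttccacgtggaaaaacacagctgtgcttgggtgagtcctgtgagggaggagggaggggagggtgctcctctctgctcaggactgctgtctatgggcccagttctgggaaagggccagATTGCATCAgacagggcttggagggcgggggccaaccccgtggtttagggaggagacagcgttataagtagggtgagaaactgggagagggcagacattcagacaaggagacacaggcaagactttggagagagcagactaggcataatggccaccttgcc
Hmgcs1 promoter: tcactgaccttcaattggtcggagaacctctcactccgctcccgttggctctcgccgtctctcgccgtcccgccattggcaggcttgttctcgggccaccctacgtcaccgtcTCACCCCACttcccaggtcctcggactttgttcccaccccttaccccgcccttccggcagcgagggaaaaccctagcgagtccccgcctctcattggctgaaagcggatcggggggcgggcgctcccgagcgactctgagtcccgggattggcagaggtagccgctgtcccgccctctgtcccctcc

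Isg15, which encodes a ubiquitin-like protein that is joined to other proteins in interferon-treated cells, had 123, 107 and 169.7 CPM in ADU-S100-treated tumors, against 20.8, 12.8 and 17.5 CPM in HBSS-treated tumors (log2 fold change 2.97 ± 0.23, adjusted p = 0.00111, edgeR). A value with ± and no unit is a log2 fold change with its standard error, in all that follows, and values in CPM with ± carry the SD. B2m, the light chain of MHC class I, had 2322, 2249 and 2227 CPM in ADU-S100-treated tumors, against 1052, 890.2 and 1039 CPM in HBSS-treated tumors (log2 fold change 1.19 ± 0.12, adjusted p = 0.00151). The groups did not overlap for either gene. Of 40 tested type I interferon-stimulated genes, 39 were higher and 0 lower (left-out counts 38, 34, 37, 28, 31 and 32 higher), with a median log2 fold change of 1.91 against 0.03 over all tested genes. The exception was Eif2ak2, the kinase PKR that halts translation on double-stranded RNA (105 against 79.6 CPM, adjusted p = 0.102). The rest of the account concerns pathways outside this core, and the plot of passing genes by list shows where they lie.

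**Figure D1:**
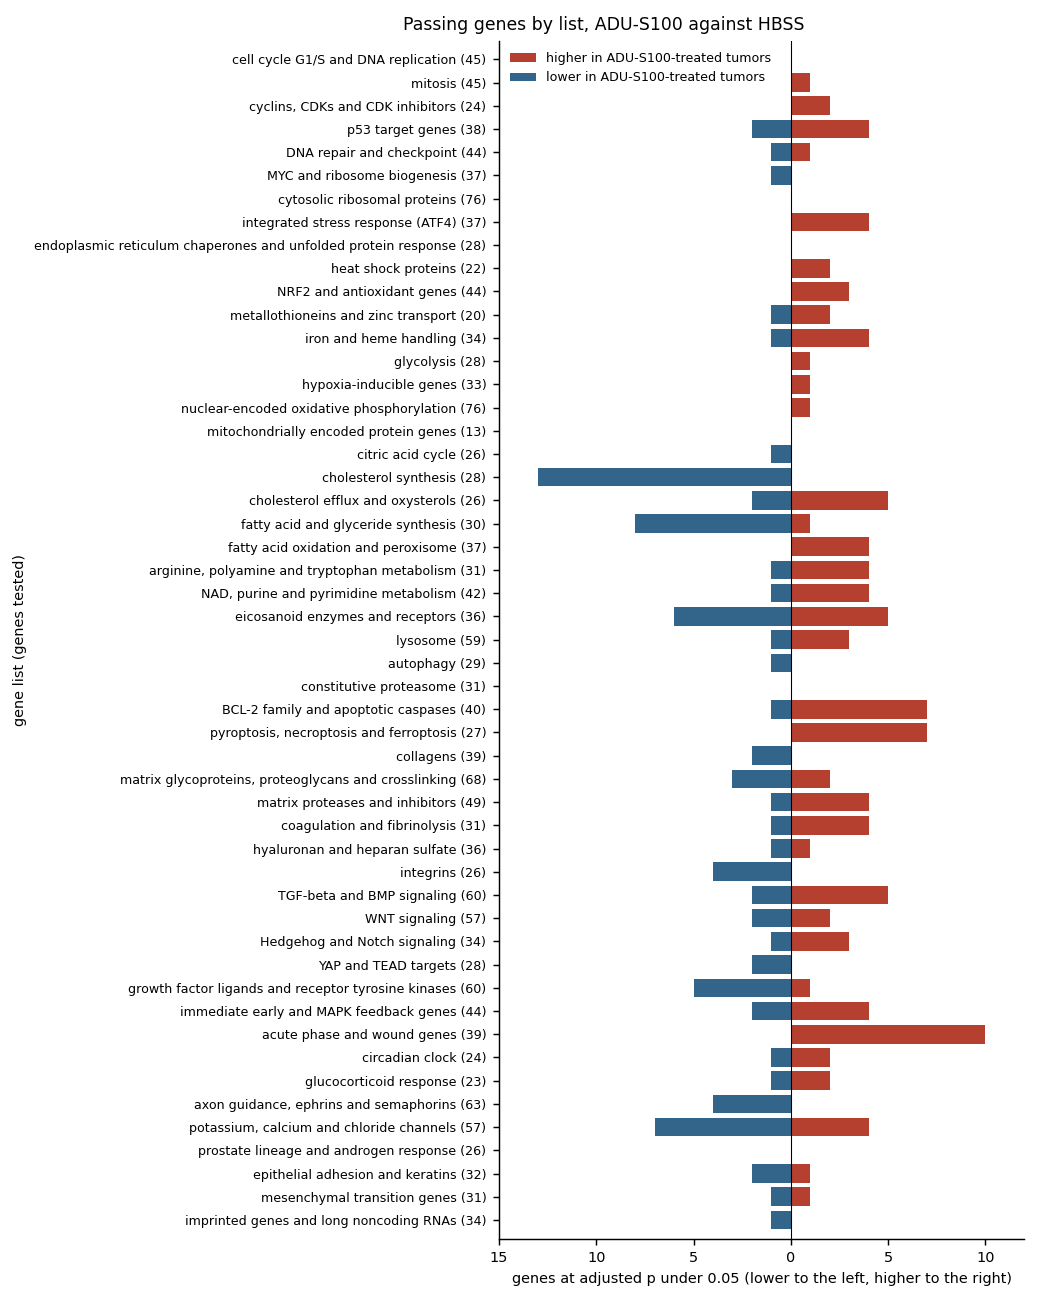
Number of genes at adjusted p under 0.05 (horizontal axis, edgeR) in each list of at least 10 tested genes outside the interferon, chemokine, cytokine, complement and cell type lists, with the number tested in parentheses on the vertical axis; red bars to the right count genes higher and blue bars to the left genes lower in ADU-S100-treated than in HBSS-treated tumors (n = 3 per group). Among the lists drawn, cholesterol synthesis has the longest blue bar, with 13 of 28 genes, and acute phase genes the longest red bar, with 10 of 39.

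Genes of cholesterol synthesis were lower in ADU-S100-treated tumors. Of 28 tested genes of the mevalonate and sterol pathway and its regulators, 13 were lower and 0 higher (left-out counts 10, 5, 5, 6, 7 and 3 lower), with a median log2 fold change of -0.43, and for 18 of them every ADU-S100-treated tumor lay below every HBSS-treated tumor. The mevalonate arm begins with Hmgcs1, which condenses acetyl units (73.6, 82.8 and 74.5 CPM in ADU-S100-treated tumors, against 125, 127 and 165 CPM in HBSS-treated tumors). Its ADU-S100-treated tumors lay in a narrow band below all HBSS-treated tumors (log2 fold change -0.85 ± 0.13, adjusted p = 0.0105). Further along, Fdps, which makes farnesyl pyrophosphate, was lower with -0.62 ± 0.13 and Msmo1, a sterol demethylase, with -0.91 ± 0.16. Stard4, a carrier that moves cholesterol between membranes, had 27.6, 29.5 and 28.7 CPM in ADU-S100-treated tumors, against 43.4, 55.2 and 51.7 CPM in HBSS-treated tumors (log2 fold change -0.81 ± 0.12, adjusted p = 0.00887). No tumor of a group overlapped with the other group in Stard4, and this gene and Hmgcs1 kept an adjusted p under 0.05 whichever of the 6 tumors was left out.

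Further lower genes of this list, named after their values were seen, were Idi1, Sqle, Lss, Cyp51, Insig1 and Srebf2. Sqle encodes squalene epoxidase (60.4 against 105 CPM, mean of ADU-S100-treated against mean of HBSS-treated tumors). Srebf2 encodes the factor SREBP2 itself, with 174 ± 26.6 CPM in ADU-S100-treated tumors and 288 ± 50.4 CPM in HBSS-treated tumors (SD, n = 3 each, log2 fold change -0.73 ± 0.16, adjusted p = 0.0354). Of its partner genes, Scap, which escorts SREBP2 to the Golgi, had 86.2 against 70.8 CPM (adjusted p = 0.251) and Insig2, which retains it, 50.3 against 54.4 CPM (adjusted p = 0.847). The median stayed between -0.48 and -0.38 when a tumor was left out. DESeq2 on the 6 tumors called 13 of them lower and on all 12 tumors 0, with a median of -0.45 in both. In the promoters of this list, the sterol element as spelled above was found in Hmgcs1 alone among 20 tested genes with a promoter sequence.

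Fatty acid synthesis genes were also lower in part. Of 30 tested genes, 8 were lower and 1 higher (left-out counts 6, 2, 4, 2, 4 and 2 lower and 0, 0, 1, 0, 0 and 0 higher), with a median log2 fold change of -0.26. Scd1, the desaturase that makes oleate, had 114, 102 and 109 CPM in ADU-S100-treated tumors, against 169, 193 and 183 CPM in HBSS-treated tumors (log2 fold change -0.74 ± 0.10, adjusted p = 0.00726). Elovl6, which lengthens palmitate, had 20.7, 19.7 and 23.7 CPM in ADU-S100-treated tumors, against 36.3, 37.5 and 45.03 CPM in HBSS-treated tumors (log2 fold change -0.89 ± 0.13, adjusted p = 0.00875). The groups of neither gene overlapped, and both kept an adjusted p under 0.05 whichever tumor was left out. Acaca, acetyl-CoA carboxylase, was lower by a log2 fold change of -0.71, and the second desaturase Scd2 had one of -0.71. Acsl3, an acyl-CoA synthetase that shares exon bases with Utp14b, had one of -0.57, and its count is uncertain for that reason. Elovl7, an elongase of low level, had 0.935 against 2.58 CPM. Fasn, fatty acid synthase, and Fads2, a desaturase of polyunsaturated fatty acids, were also lower (adjusted p = 0.0444 and 0.0490), and Plin2, a coat protein of lipid droplets, was higher with 229 ± 93.4 CPM in ADU-S100-treated tumors and 95.7 ± 18.1 CPM in HBSS-treated tumors (adjusted p = 0.0498). These 3 genes were named after their values were seen. Srebf1, the factor of fatty acid genes, had 137 against 161 CPM (adjusted p = 0.306).

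**Figure D2:**
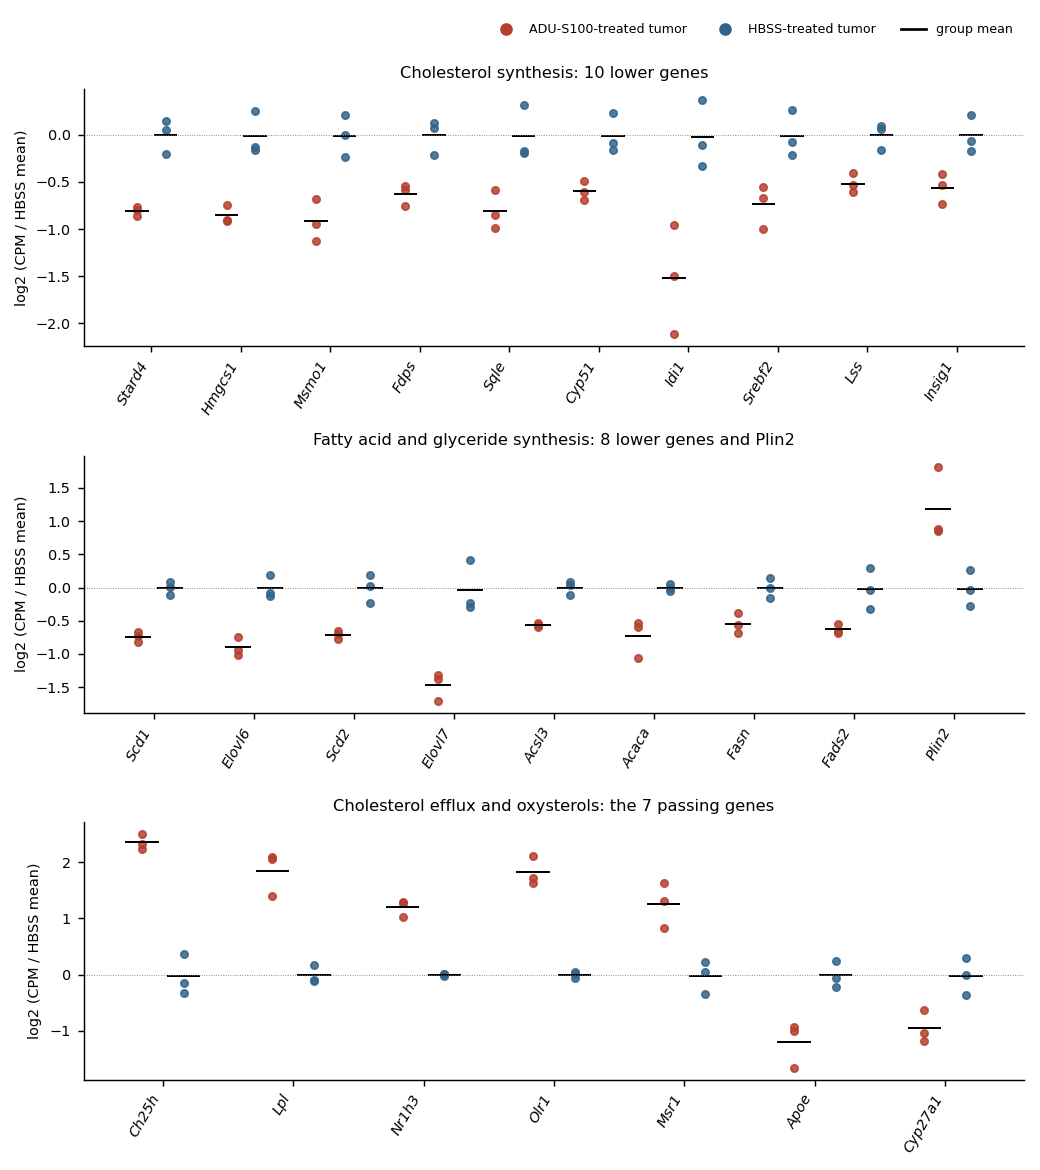
Level of passing genes of 3 lipid lists in each tumor, as log2 of its CPM over the mean CPM of the HBSS-treated tumors (vertical axis), with ADU-S100-treated tumors in red on the left of each gene and HBSS-treated tumors in blue on the right (n = 3 per group) and black bars for group means. The red points lie below the blue points for the 10 cholesterol genes and 8 fatty acid genes drawn, and above them for Plin2 and the 5 higher genes of efflux and oxysterols.

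Genes that handle imported lipid and oxysterols went in both directions. Of 26 tested genes, 5 were higher and 2 lower (left-out counts 6, 5, 5, 3, 4 and 4 higher and 1, 2, 2, 0, 3 and 0 lower), with a median log2 fold change of 0.07. Ch25h, cholesterol 25-hydroxylase, had 36.9, 32.5 and 30.6 CPM in ADU-S100-treated tumors, against 5.21, 5.92 and 8.47 CPM in HBSS-treated tumors (log2 fold change 2.35 ± 0.20, adjusted p = 0.000952). Lpl, the lipase that frees fatty acids from lipoproteins, had 130.1, 83.1 and 134 CPM in ADU-S100-treated tumors, against 29.6, 29.3 and 35.6 CPM in HBSS-treated tumors (log2 fold change 1.88 ± 0.19, adjusted p = 0.00196). Nr1h3, which encodes the oxysterol receptor LXR alpha, had 6.75, 8.06 and 8.01 CPM in ADU-S100-treated tumors, against 3.27, 3.34 and 3.34 CPM in HBSS-treated tumors (log2 fold change 1.20 ± 0.18, adjusted p = 0.00845). All 3 genes were higher in every ADU-S100-treated tumor and kept an adjusted p under 0.05 whichever tumor was left out. Of the scavenger receptors of this list, Msr1 (118 against 48.4 CPM, 1.29 ± 0.22) and Olr1, the receptor for oxidized lipoprotein (0.980 against 0.275 CPM, 1.83 ± 0.30), were higher, and Cd36 had 49.9 against 19.7 CPM and did not pass (adjusted p = 0.105). The abundant lipid carrier Apoe was lower, with 2038, 2143 and 1297 CPM in ADU-S100-treated tumors, against 4844, 3504 and 3915 CPM in HBSS-treated tumors (log2 fold change -1.16 ± 0.21, adjusted p = 0.0183). Cyp27a1, which makes another oxysterol, was lower too (-0.93 ± 0.21, named after its values were seen). Abca1 and Abcg1, the cholesterol exporters that LXR is known to induce, were looked at after the results were known and did not pass, with 107 against 148 CPM for Abca1 (adjusted p = 0.156) and 50.7 against 31.4 CPM for Abcg1 (adjusted p = 0.0850). Apoe, Msr1 and Lpl are also macrophage genes, and macrophage genes changed in these tumors, as given below, and the part of that change in these values was not tested.

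A marker of cell arrest was higher, while genes of cell division showed almost no calls. Cdkn1a, the gene of the cyclin-dependent kinase inhibitor p21 (chr17:29090979-29100722 on GRCm38), had 84.5, 83.2 and 105 CPM in ADU-S100-treated tumors, against 22.1, 28.2 and 23.4 CPM in HBSS-treated tumors (log2 fold change 1.89 ± 0.14, adjusted p = 0.000695). Bax, a pore-forming death protein, had 104, 86.7 and 77.6 CPM in ADU-S100-treated tumors, against 53.6, 46.3 and 52.5 CPM in HBSS-treated tumors (log2 fold change 0.81 ± 0.13, adjusted p = 0.0116). In both the groups did not overlap, and both passed whichever tumor was left out. Of 38 tested p53 target genes, 4 were higher (Cdkn1a, Bax, Fas and Sesn2) and 2 lower (Sesn1 and Epha2) (left-out counts 4, 3, 5, 2, 2 and 2 higher and 2, 2, 2, 1, 2 and 0 lower), with a median of 0.17. Fas, a death receptor, had 0.97 ± 0.17, Sesn2, a stress-induced brake on mTORC1, 0.70 ± 0.16 and its paralog Sesn1 -0.66 ± 0.12. Trp53 itself had 93.4 against 73.4 CPM (adjusted p = 0.232) and Ccng1, another p53 target, 80.9 against 76.3 CPM (adjusted p = 0.715). The other 32 genes of the list did not pass.

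Of 45 tested genes of G1/S and DNA replication 0 passed (4523 of all genes had an unadjusted p under 0.05), and of 45 mitosis genes 1 passed, the securin gene Pttg1 (0.57 ± 0.14, adjusted p = 0.0464) (left-out counts 0, 0, 0, 0, 0 and 0 higher). Mki67, the antigen of dividing cells, had 261, 206 and 217 CPM in ADU-S100-treated tumors, against 255, 262 and 276 CPM in HBSS-treated tumors (adjusted p = 0.318). Top2a, the topoisomerase of mitotic chromosomes, had 373 ± 23.9 CPM in ADU-S100-treated tumors and 422 ± 42.2 CPM in HBSS-treated tumors (SD, n = 3 each, adjusted p = 0.393), and Pcna, the clamp of replication forks, 196 ± 31.7 CPM in ADU-S100-treated tumors and 159 ± 20.7 CPM in HBSS-treated tumors (adjusted p = 0.258). The groups overlapped in Mki67. Among cyclins, CDKs and their inhibitors, Cdkn1a and Cdkn2d, which encodes p19 (0.49 ± 0.12), were higher (left-out counts 1, 1, 1, 1, 1 and 1 higher), and 0 genes of that list were lower. The 68 histone genes taken by their cluster symbols, most of them replication-dependent histones whose messages lack introns, took 0.0120 ± 0.00150% of counts in ADU-S100-treated tumors. In HBSS-treated tumors they took 0.00509 ± 0.000783% (SD, n = 3 each, exact two-sided permutation p = 0.1, the smallest that 3 against 3 tumors allow). The linker histone Hist1h1c is counted in that share and made up a large part of it in both groups. The share of the other histone genes without it was not computed. Hist1h1c had 49.3, 74.5 and 65.03 CPM in ADU-S100-treated tumors, against 19.9, 21.5 and 24.5 CPM in HBSS-treated tumors (log2 fold change 1.52 ± 0.17, adjusted p = 0.00237). H2afx, whose phosphorylated protein marks DNA breaks, had 0.85 ± 0.19.

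Genes of the integrated stress response rose in part. Of 37 tested genes, 4 were higher and 0 lower (left-out counts 4, 3, 4, 3, 3 and 3 higher), with a median of 0.18. Nupr1, a small stress-induced nuclear protein, had 69.1, 59.3 and 61.3 CPM in ADU-S100-treated tumors, against 30.6, 24.1 and 30.1 CPM in HBSS-treated tumors (log2 fold change 1.16 ± 0.13, adjusted p = 0.00263). Ddit3, which encodes the factor CHOP (chr10:127290774-127296288), had 59.5, 86.8 and 72.6 CPM in ADU-S100-treated tumors, against 24.4, 33.1 and 24.6 CPM in HBSS-treated tumors (log2 fold change 1.42 ± 0.18, adjusted p = 0.00414). Cebpb, a factor of inflammation and stress, had 67.8, 61.6 and 82.7 CPM in ADU-S100-treated tumors, against 32.1, 35.7 and 37.7 CPM in HBSS-treated tumors (log2 fold change 1.01 ± 0.14, adjusted p = 0.00582). All 3 separated the groups and passed whichever tumor was left out, but Ddit3 overlaps Mars and Cebpb overlaps Tmem189, so that reads could be shared where strand was not used. In the amino acid arm 3 abundant genes did not pass, since Atf4 had 229 against 203 CPM (adjusted p = 0.403), Phgdh, the first enzyme of serine synthesis, 258 against 280.1 CPM (adjusted p = 0.642) and Sars, a tRNA synthetase, 326 against 274 CPM (adjusted p = 0.209). Of 28 endoplasmic reticulum chaperones and unfolded protein response genes 0 passed, and the chaperone Hspa5 had 792, 754 and 781 CPM in ADU-S100-treated tumors, against 767, 752 and 746 CPM in HBSS-treated tumors, values that overlap. Of 22 heat shock genes 2 were higher, Cryab (71.7 against 10.8 CPM, 2.73 ± 0.45) and Hspb8 (0.46 ± 0.10) (left-out counts 2, 0, 2, 0, 0 and 1 higher). Cryab is also abundant in skeletal muscle, whose RNA share also was highest in 17LL and lowest in 22LR among the ADU-S100-treated tumors, with 108, 65.1 and 41.7 CPM of Cryab in 17LL, 18R and 22LR, and the part of muscle in its value was not tested.

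Iron-handling genes changed on both sides. Of 34 tested genes, 4 were higher and 1 lower (left-out counts 5, 3, 3, 0, 2 and 0 higher and 2, 1, 2, 1, 1 and 1 lower). Ftl1, the ferritin light chain, had 1761, 1374 and 1758 CPM in ADU-S100-treated tumors, against 930.1, 939.7 and 929 CPM in HBSS-treated tumors (log2 fold change 0.81 ± 0.13, adjusted p = 0.0118), and Fth1, the heavy chain, 1876, 1426 and 1669 CPM in ADU-S100-treated tumors, against 1045, 1044 and 912 CPM in HBSS-treated tumors (log2 fold change 0.73 ± 0.14, adjusted p = 0.0203). Trf, transferrin, the carrier of iron in blood, had 20.5, 13.5 and 13.2 CPM in ADU-S100-treated tumors, against 53.5, 57.7 and 48.6 CPM in HBSS-treated tumors (log2 fold change -1.76 ± 0.18, adjusted p = 0.00196). In each gene the groups were separate, and Trf passed whichever tumor was left out, while Ftl1 passed without 3 and Fth1 without 2 of the 6. Ferritin genes have near-identical pseudogenes that could share reads, and their counts are uncertain. Cp, the ferroxidase ceruloplasmin, which overlaps Hps3, had 394 against 159 CPM (1.31 ± 0.22), and Lcn2, which binds bacterial iron carriers, 8.97, 1.94 and 12.2 CPM in ADU-S100-treated tumors, against 0.310, 0.309 and 0.199 CPM in HBSS-treated tumors. Hmox1, heme oxygenase, had 243, 199 and 368 CPM in ADU-S100-treated tumors, against 67.7, 147 and 93.9 CPM in HBSS-treated tumors and did not pass (adjusted p = 0.0667), although no tumor overlapped. Among metallothioneins and zinc transporters, Mt1 was higher (79.6, 95.1 and 141 CPM in ADU-S100-treated tumors, against 25.5, 48.1 and 27.6 CPM in HBSS-treated tumors, adjusted p = 0.0310), Mt3 was higher at a low level (0.646 against 0.0951 CPM) and the importer Slc39a10 was lower (-0.60 ± 0.12) (left-out counts 1, 1, 1, 1, 2 and 1 higher and 1, 0, 0, 1, 0 and 0 lower). Of 44 NRF2 and antioxidant genes, Sod3, the extracellular superoxide dismutase (43.9 against 9.08 CPM), Gpx7 (5.38 against 2.07 CPM) and Prdx5, which overlaps Trmt112 (184 against 128 CPM), were higher and 0 lower (left-out counts 1, 2, 1, 1, 1 and 0 higher), and Fth1, Mt1, Slc39a10, Gpx7 and Prdx5 did not pass with the length trend described below removed (adjusted p = 0.0762, 0.107, 0.0548, 0.0825 and 0.133).

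**Figure D3:**
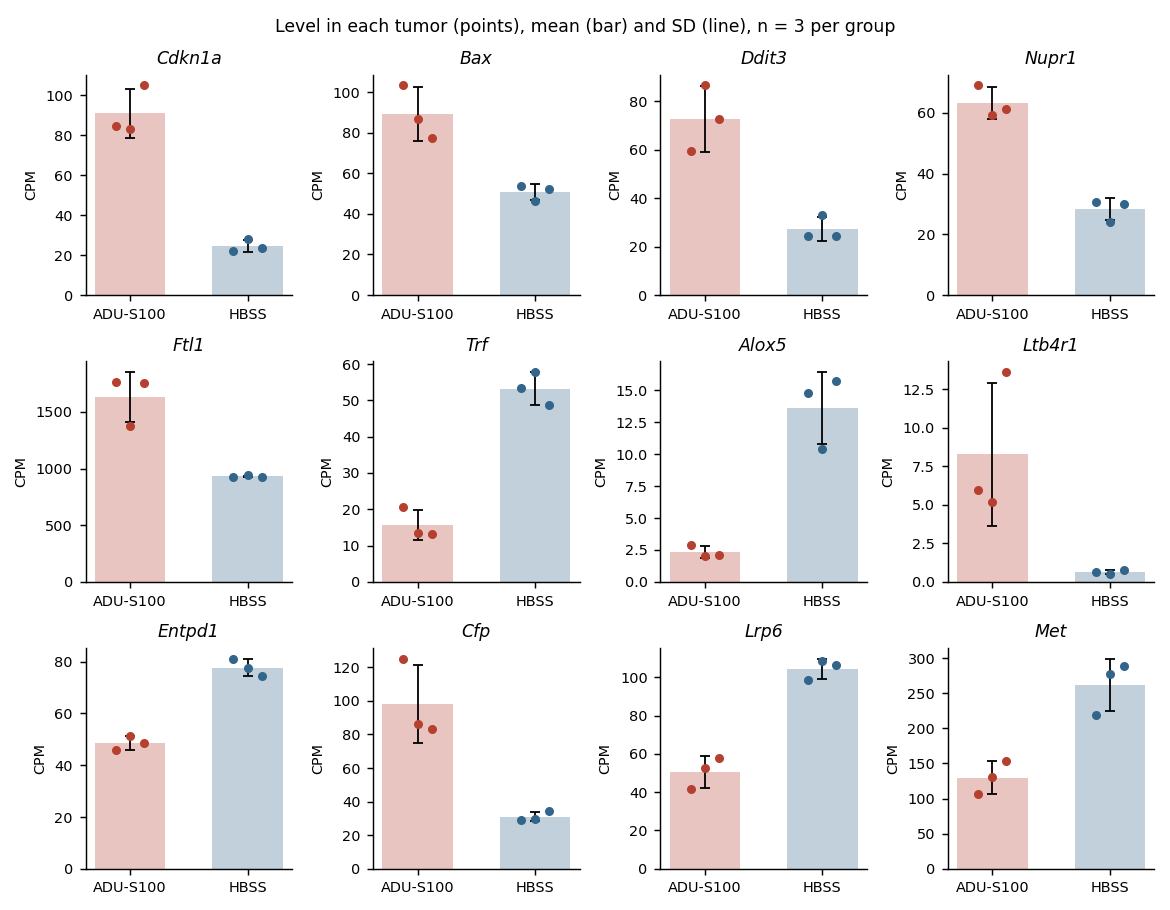
Level (vertical axis, CPM, from 0) of 12 genes of different pathways in ADU-S100-treated tumors (red, left) and HBSS-treated tumors (blue, right), with points for tumors, bars for means and lines for the SD (n = 3 per group). In every panel the groups are separate, and Cdkn1a averages 90.9 against 24.6 CPM and Alox5 2.33 against 13.6 CPM.

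Energy metabolism showed few calls. Of 28 glycolysis genes only Hk3, a myeloid hexokinase that overlaps Unc5a, passed (0.91 ± 0.16) (left-out counts 1, 1, 1, 0, 1 and 1 higher), and Pkm, pyruvate kinase, had 2616 ± 236 CPM in ADU-S100-treated tumors and 1856 ± 239 CPM in HBSS-treated tumors (SD, n = 3 each, adjusted p = 0.0691). Of 33 hypoxia-inducible genes only Car9, which overlaps a noncoding gene, passed (1.09 ± 0.24) (left-out counts 1, 0, 0, 0, 4 and 0 higher). Of 26 citric acid cycle genes 1 was lower and 0 higher (left-out counts 0, 0, 2, 1, 0 and 0 lower). Of 37 genes of fatty acid oxidation and peroxisomes 4 were higher and 0 lower (left-out counts 4, 0, 0, 0, 1 and 0 higher), among them Slc25a20, which carries acylcarnitine into mitochondria (0.69 ± 0.14), and Pparg, a factor of lipid storage (0.92 ± 0.23). Of 76 nuclear genes of oxidative phosphorylation 1 was higher, Ndufa1 of complex I (39.4, 31.04 and 29.6 CPM in ADU-S100-treated tumors, against 24.3, 19.4 and 19.98 CPM in HBSS-treated tumors, adjusted p = 0.0405) (left-out counts 0, 0, 0, 0, 0 and 0 higher), yet for 34 of the 76 every ADU-S100-treated tumor was above every HBSS-treated tumor and the median was 0.26. Of 76 cytosolic ribosomal protein genes 0 passed, 22 were above in this sense and the median was 0.20. The 13 protein genes of the mitochondrial genome had a median of 0.58 and 0 passed, and mt-Co1, of complex IV, had 7962, 3869.5 and 4990.1 CPM in ADU-S100-treated tumors, against 3678, 3421 and 4468 CPM in HBSS-treated tumors, with tumor 17LL as the high value.

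These shifts of short, abundant messages went with transcript length. Across 13954 genes whose mean CPM was 1 or more, Spearman's rho between the log2 fold change and the exon length of the gene was -0.404, as a description over genes, which share the same 6 libraries. Among 12908 protein-coding genes split into 10 bins of length, the shortest bin (243 to 1675 bases) had a median log2 fold change of 0.27, with 114 genes higher and 13 lower at adjusted p under 0.05, and the longest bin (9413 bases or more) had one of -0.26, with 16 higher and 152 lower. The slope differed between tumors of a group. Tumor 17LL went through 0.25 in the shortest and -0.24 in the longest bin, relative to the mean of the 6 tumors, 18R through 0.11 and -0.12 and 22LR through 0.01 and -0.04, against -0.06 and 0.08 in HBSS tumor 19, -0.19 and 0.19 in 22R and -0.14 and 0.12 in 22LL. When the trend was removed from each tumor before the fit, a choice made after the data were seen, 576 DEGs were called, and 539 of them (426 higher and 113 lower) were among the 667. The medians of ribosomal protein and oxidative phosphorylation genes were then 0.02 and 0.09, that of cholesterol synthesis was -0.45 with 10 genes lower, and that of fatty acid synthesis -0.26 with 6 lower. Among the genes named as higher or lower in other paragraphs, Acaca, Fasn, Plin2, Lss, Sqle, H2afx, Pttg1, Cdkn2d, Hspb8, Car9, Ndufa1, Pparg, Alox5ap, Hpgds, Adora3, Upp1, Ido1, Casp1, Col4a5, Col15a1, Itga4, Itga6, Lamb1, Plaur, Bmpr2, Tgfbi, Tead1, Ptpn14, Nrp1 and Slpi did not pass in that fit, besides those whose values in it are given with their lists. RNA quality of the tumors was not given, and its part was not tested.

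**Figure D4:**
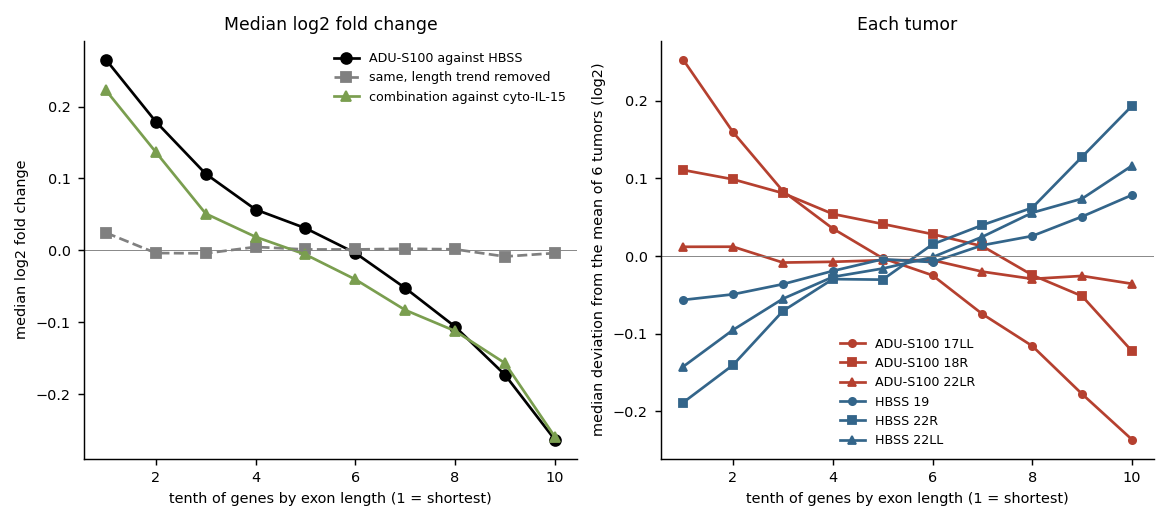
Left, median log2 fold change (vertical axis) of protein-coding genes in 10 bins of exon length (horizontal axis, 1 is shortest), for ADU-S100 against HBSS (black), the same after removal of the length trend (grey) and combination against cyto-IL-15 (green); right, the median log2 deviation of each tumor from the mean of the 6 tumors, with ADU-S100-treated tumors in red and HBSS-treated tumors in blue. The black line falls through 0.27 in the first bin and -0.26 in the last, and the red line of 17LL is the steepest of the ADU-S100-treated tumors.

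Genes of lipid mediators changed in both directions. Of 36 tested genes of eicosanoid synthesis and receptors, 5 were higher and 6 lower (left-out counts 4, 4, 3, 2, 2 and 1 higher and 4, 4, 3, 2, 3 and 4 lower). Alox5, which starts leukotriene synthesis, had 2.86, 2.00 and 2.12 CPM in ADU-S100-treated tumors, against 14.8, 10.4 and 15.7 CPM in HBSS-treated tumors (log2 fold change -2.55 ± 0.23, adjusted p = 0.00117), whereas Alox5ap, the membrane protein that hands it arachidonate, had 99.5, 103 and 122 CPM in ADU-S100-treated tumors, against 63.7, 41.01 and 60.4 CPM in HBSS-treated tumors (log2 fold change 0.98 ± 0.17, adjusted p = 0.0170). Ltb4r1, the receptor for leukotriene B4 that guides neutrophils, had 5.98, 5.22 and 13.6 CPM in ADU-S100-treated tumors, against 0.653, 0.525 and 0.763 CPM in HBSS-treated tumors (log2 fold change 3.67 ± 0.42, adjusted p = 0.00316). The enzyme and its helper thus lay on opposite sides, and no gene of these 3 had overlapping groups. Ltc4s, which makes leukotriene C4, was lower (-1.17 ± 0.20), and Lta4h, which makes leukotriene B4, had 86.7 against 94.9 CPM (adjusted p = 0.506). In the prostaglandin branch, Hpgd, the enzyme that breaks prostaglandins down, had 7.74, 5.53 and 6.02 CPM in ADU-S100-treated tumors, against 21.8, 19.5 and 16.8 CPM in HBSS-treated tumors (log2 fold change -1.59 ± 0.18, adjusted p = 0.00261). Named after their values were seen, Ptges, an inducible prostaglandin E synthase, was higher (1.29 ± 0.27), and Ptgs1, the constitutive cyclooxygenase (-0.55 ± 0.13), and Hpgds, a prostaglandin D synthase (-0.75 ± 0.19), were lower. Alox5, Hpgd and Ltb4r1 passed whichever of the 6 tumors was left out.

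Genes that handle or sense nucleotides changed in both directions. Of 42 genes of NAD, purine and pyrimidine metabolism 4 were higher and 1 lower (left-out counts 5, 3, 5, 2, 1 and 1 higher and 1, 1, 1, 1, 1 and 1 lower), and P2rx7, P2ry12 and P2ry13 belong to the list of channels and nucleotide receptors. Entpd1, the ectoenzyme CD39 that breaks down extracellular ATP, had 45.7, 51.4 and 48.7 CPM in ADU-S100-treated tumors, against 81.1, 77.7 and 74.4 CPM in HBSS-treated tumors (log2 fold change -0.68 ± 0.10, adjusted p = 0.00875). P2rx7, the channel that opens to extracellular ATP, had 19.6, 23.4 and 19.9 CPM in ADU-S100-treated tumors, against 41.99, 35.3 and 43.7 CPM in HBSS-treated tumors (log2 fold change -0.95 ± 0.13, adjusted p = 0.00678). The groups were separate in both genes. P2ry12 and P2ry13, receptors for ADP that overlap Med12l, were lower (-1.07 ± 0.17 and -0.95 ± 0.15), and Nt5e, the enzyme CD73 that makes adenosine, looked at after the results were known, had 25.6 against 22.7 CPM (adjusted p = 0.647). Adora3, an adenosine receptor, was higher at a low level (1.53 against 0.606 CPM, 1.34 ± 0.30), and so was Pnp2, a purine nucleoside phosphorylase (1.72 ± 0.31). Cmpk2, an interferon-induced mitochondrial nucleotide kinase, had 36.5, 41.4 and 55.3 CPM in ADU-S100-treated tumors, against 17.7, 11.9 and 13.9 CPM in HBSS-treated tumors (log2 fold change 1.62 ± 0.20, adjusted p = 0.00414) and Upp1, which splits uridine, 41.4 against 22.5 CPM (0.88 ± 0.19). Adssl1, an adenylosuccinate synthase best known from muscle and outside all lists, had 45.2, 33.8 and 33.1 CPM in ADU-S100-treated tumors, against 9.01, 8.79 and 11.4 CPM in HBSS-treated tumors (log2 fold change 1.94 ± 0.17, adjusted p = 0.00111). Among amino acid enzymes, Gch1, which makes the cofactor of nitric oxide synthases, Ido1 and Ido2, which degrade tryptophan, and Smox, a spermine oxidase, were higher (0.95 ± 0.18, 2.39 ± 0.58, 1.44 ± 0.31 and 0.48 ± 0.10) (left-out counts 4, 0, 2, 0, 0 and 0 higher). Kmo, which follows in the tryptophan pathway and overlaps Fh1, was lower (-1.34 ± 0.28).

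Genes of inflammatory cell death rose in part. Of 27 genes of pyroptosis, necroptosis and ferroptosis, 7 were higher and 0 lower (left-out counts 7, 5, 5, 4, 3 and 4 higher), with a median of 0.33. Zbp1, a sensor of Z-form nucleic acid that can start necroptosis, had 117, 118 and 141 CPM in ADU-S100-treated tumors, against 30.6, 15.3 and 34.02 CPM in HBSS-treated tumors (log2 fold change 2.24 ± 0.29, adjusted p = 0.00887). Casp4, the inflammatory caspase that senses bacterial lipid A in mice, had 44.7, 36.5 and 47.8 CPM in ADU-S100-treated tumors, against 18.9, 23.6 and 18.8 CPM in HBSS-treated tumors (log2 fold change 1.07 ± 0.15, adjusted p = 0.00636), and Mefv, the inflammasome protein pyrin, 7.91, 9.04 and 13.1 CPM in ADU-S100-treated tumors, against 2.24, 2.42 and 2.95 CPM in HBSS-treated tumors (log2 fold change 1.98 ± 0.24, adjusted p = 0.00373). All 3 were higher in every ADU-S100-treated tumor and passed whichever tumor was left out. Mlkl, the executor of necroptosis, was higher (0.63 ± 0.10), and so was Casp1, the inflammasome caspase (0.88 ± 0.16), while Ripk3, the kinase that activates MLKL, had 115 against 81.5 CPM (adjusted p = 0.103). Of 40 BCL-2 family, caspase and death receptor genes 7 were higher and 1 lower (left-out counts 6, 5, 5, 5, 3 and 3 higher and 1, 0, 0, 0, 0 and 1 lower). Xaf1, an interferon-induced antagonist of the caspase inhibitor XIAP, had 86.8, 68.4 and 88.9 CPM in ADU-S100-treated tumors, against 20.7, 16.5 and 19.3 CPM in HBSS-treated tumors (log2 fold change 2.11 ± 0.15, adjusted p = 0.000695), Tnf 1.42 ± 0.25 and Fasl 1.47 ± 0.25. Mcl1, which protects mitochondria, had 329 against 341 CPM (adjusted p = 0.819).

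Few genes of the matrix itself passed the test. Of 39 collagens, 0 were higher and 2 lower, the basement membrane chain Col4a5 (-0.75 ± 0.17) and Col15a1 (-0.80 ± 0.19) (left-out counts 2, 1, 1, 0, 0 and 1 lower), with a median of -0.28. Col1a1, the main fibrillar chain, had 6861, 8084 and 7729 CPM in ADU-S100-treated tumors, against 9526, 10334 and 8205 CPM in HBSS-treated tumors (adjusted p = 0.217). Collagen genes are long, and with the length trend removed their median was -0.12 and 0 were called in that fit. Of 49 matrix proteases and inhibitors, 4 were higher and 1 lower (left-out counts 5, 5, 4, 2, 1 and 2 higher and 1, 1, 0, 0, 0 and 0 lower). Adam8, a shedding protease of myeloid cells, had 220.5, 178 and 256 CPM in ADU-S100-treated tumors, against 60.5, 53.1 and 76.03 CPM in HBSS-treated tumors (log2 fold change 1.79 ± 0.18, adjusted p = 0.00149), Mmp12, macrophage elastase, 29.9, 18.4 and 64.2 CPM in ADU-S100-treated tumors, against 1.06, 2.48 and 1.90 CPM in HBSS-treated tumors (log2 fold change 4.36 ± 0.60, adjusted p = 0.0182) and Mmp8, neutrophil collagenase, 4.29, 3.35 and 15.96 CPM in ADU-S100-treated tumors, against 0.0980, 0.269 and 0.232 CPM in HBSS-treated tumors (log2 fold change 5.26 ± 0.79, adjusted p = 0.0170). All 3 were separate between groups, and Mmp12 and Mmp8 were highest in tumor 22LR and passed without 2 and 3 of the 6 tumors. Htra1 was the lower protease (-0.65 ± 0.16), and Mmp14, at 1296 ± 64.2 CPM in ADU-S100-treated tumors and 957 ± 81.2 CPM in HBSS-treated tumors (SD, n = 3 each), did not pass. Of 68 genes of matrix glycoproteins, proteoglycans and crosslinking, 2 were higher and 3 lower, with a median of 0.07. Their left-out counts were 3, 0, 2, 1, 1 and 1 higher and 2, 0, 1, 2, 1 and 2 lower. In this list Pcolce2, an enhancer of procollagen processing, was lower (5.96, 5.05 and 5.60 CPM in ADU-S100-treated tumors, against 14.5, 19.6 and 9.81 CPM in HBSS-treated tumors, adjusted p = 0.0161), and so was the laminin chain Lamb1 (-0.64 ± 0.15). Of 26 integrins 4 were lower and 0 higher (left-out counts 3, 0, 2, 1, 2 and 0 lower and 4, 0, 0, 0, 0 and 0 higher), among them Itga4 (-0.82 ± 0.17), Itga6 (-0.57 ± 0.12) and Itgae, which overlaps Haspin, but 1 was lower once the length trend was removed.

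Coagulation factors X and VII rose. Of 31 tested genes, 4 were higher and 1 lower (left-out counts 2, 3, 2, 1, 3 and 4 higher and 0, 1, 1, 1, 0 and 1 lower). F10, factor X, had 4.72, 8.22 and 14.6 CPM in ADU-S100-treated tumors, against 0.392, 0.592 and 0.387 CPM in HBSS-treated tumors (log2 fold change 4.33 ± 0.46, adjusted p = 0.00263), and F7, factor VII, 1.40, 2.12 and 6.16 CPM in ADU-S100-treated tumors, against 0.0816, 0.0135 and 0.111 CPM in HBSS-treated tumors (log2 fold change 5.50 ± 0.82, adjusted p = 0.0125). F13a1, the clot-stabilizing transglutaminase that resident macrophages also make, had 32.03, 19.6 and 50.2 CPM in ADU-S100-treated tumors, against 119, 205 and 224 CPM in HBSS-treated tumors (log2 fold change -2.43 ± 0.41, adjusted p = 0.0291). The groups were separate in all 3. Plaur, the urokinase receptor, was higher (0.75 ± 0.18), and Plau, urokinase, had 225 against 163 CPM (adjusted p = 0.135). Stab1, a scavenger receptor for hyaluronan that overlaps Nt5dc2, had 361, 341 and 326 CPM in ADU-S100-treated tumors, against 659, 646 and 709 CPM in HBSS-treated tumors (log2 fold change -0.97 ± 0.11, adjusted p = 0.00251), and Sdc3, a heparan sulfate proteoglycan, was higher (0.78 ± 0.16). Stab1 is also among the resident-type macrophage genes given below, and the part of these cells in its value was not tested.

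Several growth factor receptors and ligands were lower. Of 60 tested ligands and receptor tyrosine kinases, 1 was higher and 5 lower (left-out counts 1, 1, 0, 0, 0 and 0 higher and 5, 2, 3, 1, 4 and 3 lower). Met, the receptor for hepatocyte growth factor (chr6:17463800-17573980), had 107, 130.3 and 153 CPM in ADU-S100-treated tumors, against 219, 278 and 289 CPM in HBSS-treated tumors (log2 fold change -1.01 ± 0.16, adjusted p = 0.0113). Csf1r, the receptor of the macrophage growth factor CSF1, had 263, 404 and 294 CPM in ADU-S100-treated tumors, against 673, 547 and 647 CPM in HBSS-treated tumors (log2 fold change -0.96 ± 0.17, adjusted p = 0.0178). Both were lower in every ADU-S100-treated tumor, and Met passed whichever tumor was left out and Csf1r without 4 of the 6. Tgfa, an EGF receptor ligand (-1.01 ± 0.20), Flt3 (-1.49 ± 0.35) and Insr, the insulin receptor (-0.62 ± 0.15), were lower, and Fgf10 was higher (1.43 ± 0.34). Csf1r is also a marker of macrophages and Flt3 of dendritic cells, and the part of these cells in their values was not tested. In the WNT list, Lrp6, a coreceptor of Frizzled proteins, had 41.5, 52.8 and 57.9 CPM in ADU-S100-treated tumors, against 98.5, 109 and 106 CPM in HBSS-treated tumors (log2 fold change -1.04 ± 0.14, adjusted p = 0.00494), Apc, a brake on beta-catenin, was lower (-0.69 ± 0.12) and Ctnnb1, beta-catenin, had 629 against 678 CPM (adjusted p = 0.722). Rspo3, a WNT amplifier, and Rnf43, a WNT inhibitor, were higher at low levels (1.74 against 0.615 CPM and 2.24 against 0.919 CPM), so that 2 of 57 genes of this list were higher and 2 lower (left-out counts 2, 1, 1, 0, 0 and 0 higher and 3, 1, 2, 2, 1 and 1 lower). Many of the lower genes are long, and Lrp6, Met and Csf1r passed with the length trend removed, whereas Apc, Insr, Tgfa, Flt3 and Fgf10 did not (adjusted p = 0.0726, 0.157, 0.0517, 0.0683 and 0.0514 in that fit).

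In TGF-beta and BMP signaling, 5 of 60 genes were higher and 2 lower (left-out counts 3, 2, 3, 3, 2 and 3 higher and 2, 1, 3, 1, 1 and 0 lower). Id2, an inhibitor of differentiation factors and a BMP target, had 50.6, 48.7 and 56.01 CPM in ADU-S100-treated tumors, against 29.1, 22.7 and 21.7 CPM in HBSS-treated tumors (log2 fold change 1.08 ± 0.14, adjusted p = 0.00487). The BMP antagonist Grem1 was higher, with 338, 343 and 590.4 CPM in ADU-S100-treated tumors, against 131, 213 and 163 CPM in HBSS-treated tumors (log2 fold change 1.32 ± 0.27, adjusted p = 0.0329). Bmpr2, a BMP receptor, was lower (-0.74 ± 0.13), as was Ltbp4, which stores latent TGF-beta (-1.02 ± 0.18), while Tgfbi, a matrix protein induced by TGF-beta, was higher (0.81 ± 0.18). Of 28 YAP and TEAD targets 0 were higher and 2 lower (left-out counts 2, 0, 2, 1, 0 and 0 lower), the factor Tead1 (-0.66 ± 0.12) and the phosphatase Ptpn14 (-0.71 ± 0.16), and 0 passed with the length trend removed. Of 44 immediate early and MAPK feedback genes, 4 were higher and 2 lower (left-out counts 2, 1, 2, 2, 1 and 1 higher and 1, 0, 1, 0, 0 and 0 lower). Fos, of the AP-1 complex, had 21.6, 17.98 and 23.8 CPM in ADU-S100-treated tumors, against 10.1, 11.3 and 11.97 CPM in HBSS-treated tumors (log2 fold change 0.92 ± 0.15, adjusted p = 0.0113), the feedback factor Ier5 rose (0.58 ± 0.10) and Egr3 fell (-1.08 ± 0.22), whereas Jun had 246 against 198 CPM (adjusted p = 0.234). Of 63 genes of axon guidance, ephrins and semaphorins 0 were higher and 4 lower (left-out counts 3, 1, 1, 1, 1 and 0 lower), among them the ephrin receptor Epha2 (76.3, 79.2 and 68.7 CPM in ADU-S100-treated tumors, against 107, 112 and 137 CPM in HBSS-treated tumors, adjusted p = 0.0197) and Nrp1, a coreceptor for VEGF and semaphorins (-0.48 ± 0.10). Of 57 ion channel and nucleotide receptor genes, 4 were higher and 7 lower (left-out counts 3, 2, 3, 2, 0 and 2 higher and 5, 4, 3, 2, 5 and 3 lower), among the lower ones Kcnj8, which with Abcc9 forms the ATP-sensitive potassium channel of pericytes (6.02, 6.85 and 4.60 CPM in ADU-S100-treated tumors, against 14.5, 25.9 and 11.1 CPM in HBSS-treated tumors, adjusted p = 0.0316).

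Acute phase and wound genes were higher in part. Of 39 tested genes, 10 were higher and 0 lower (left-out counts 7, 7, 7, 4, 5 and 3 higher), with a median of 0.73. Chil3, a chitinase-like protein of activated macrophages, had 19.4, 29.8 and 36.4 CPM in ADU-S100-treated tumors, against 1.45, 1.61 and 2.05 CPM in HBSS-treated tumors (log2 fold change 4.06 ± 0.27, adjusted p = 0.000695), and Ptx3, a soluble pattern receptor, 35.6, 30.5 and 46.8 CPM in ADU-S100-treated tumors, against 16.2, 8.07 and 12.95 CPM in HBSS-treated tumors (log2 fold change 1.60 ± 0.27, adjusted p = 0.0176). Saa3, a serum amyloid made in inflamed tissue and named after its values were seen, had 89.97, 19.1 and 99.9 CPM in ADU-S100-treated tumors, against 1.60, 0.269 and 0.542 CPM in HBSS-treated tumors (log2 fold change 6.48 ± 1.06, adjusted p = 0.0370). The groups were separate in these genes, and Saa3 and Lcn2 were both lowest in 18R among the ADU-S100-treated tumors. Il1rn, the interleukin-1 receptor antagonist (1.73 ± 0.31), and Slpi, a protease inhibitor of neutrophils and epithelia (1.87 ± 0.44), were higher and were also named after their values were seen. Stat3, the factor of the acute phase, had 171 against 175 CPM (adjusted p = 0.906). The fit with the length trend removed gave 8 higher and 1 lower.

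Complement genes changed in both directions. Of 33 tested genes, 7 were higher and 3 lower (left-out counts 7, 5, 3, 5, 3 and 3 higher and 4, 2, 2, 2, 2 and 2 lower). Cfp, properdin, which stabilizes the convertase of the alternative pathway, had 125, 86.5 and 83.1 CPM in ADU-S100-treated tumors, against 29.3, 29.6 and 34.2 CPM in HBSS-treated tumors (log2 fold change 1.66 ± 0.17, adjusted p = 0.00170), and C5ar1, the receptor of the fragment C5a, 77.4, 54.97 and 84.1 CPM in ADU-S100-treated tumors, against 24.4, 30.02 and 31.6 CPM in HBSS-treated tumors (log2 fold change 1.33 ± 0.18, adjusted p = 0.00517). Both were higher in every ADU-S100-treated tumor and passed whichever tumor was left out. Cd55, which takes convertases apart on cell surfaces, was higher (6.39, 5.05 and 8.28 CPM in ADU-S100-treated tumors, against 2.30, 1.63 and 1.66 CPM in HBSS-treated tumors, adjusted p = 0.00752), as was C1ra (1.09 ± 0.19). C3, the central component, had 231, 886 and 782 CPM in ADU-S100-treated tumors, against 283, 167 and 257 CPM in HBSS-treated tumors, so that the groups overlapped through tumor 17LL (adjusted p = 0.182, and 0.0088 without that tumor). The C1q genes did not pass, as with C1qa at 645 ± 187 CPM in ADU-S100-treated tumors and 638 ± 137 CPM in HBSS-treated tumors (SD, n = 3 each).

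Pericyte markers were lower in part. Of 22 pericyte and smooth muscle genes, 4 were lower and 1 higher (left-out counts 3, 0, 2, 2, 3 and 5 lower and 2, 0, 1, 0, 0 and 0 higher), with a median of -0.51. Rgs5, a G-protein regulator that defines pericytes, had 50.1, 45.4 and 35.6 CPM in ADU-S100-treated tumors, against 129, 191 and 95.8 CPM in HBSS-treated tumors (log2 fold change -1.67 ± 0.26, adjusted p = 0.0149), and Abcc9, the channel subunit, 9.40, 8.41 and 7.38 CPM in ADU-S100-treated tumors, against 30.6, 54.4 and 22.4 CPM in HBSS-treated tumors (log2 fold change -2.09 ± 0.32, adjusted p = 0.0149). Pdgfrb, the receptor through which pericytes are recruited, had 105 against 116 CPM (adjusted p = 0.744). The higher gene was Des, desmin, which muscle also makes (431, 126 and 76.4 CPM in ADU-S100-treated tumors, against 8.38, 8.39 and 5.61 CPM in HBSS-treated tumors), in the order of the muscle RNA of the 3 tumors. Of 47 endothelial genes 4 were higher and 0 lower (left-out counts 3, 2, 4, 2, 2 and 1 higher), among them Egfl7, which overlaps Agpat2 (91.6, 93.9 and 65.7 CPM in ADU-S100-treated tumors, against 47.8, 43.95 and 38.1 CPM in HBSS-treated tumors, adjusted p = 0.0129), and S1pr1 (0.76 ± 0.15), while Pecam1, the defining marker, had 119, 136 and 127 CPM in ADU-S100-treated tumors, against 123, 194 and 95.4 CPM in HBSS-treated tumors. The difference between the pericyte and endothelial lists was not tested, and without HBSS tumor 22R the median of the pericyte list was -0.20. Of 31 fibroblast genes, Thy1 (136, 105 and 101 CPM in ADU-S100-treated tumors, against 63.9, 42.8 and 55.01 CPM in HBSS-treated tumors, adjusted p = 0.0114), the eosinophil attractant Ccl11 (8.71, 7.44 and 17.3 CPM in ADU-S100-treated tumors, against 1.58, 0.942 and 0.951 CPM in HBSS-treated tumors, adjusted p = 0.00414) and Ly6c1, whose close paralog Ly6c2 makes its count uncertain, were higher (left-out counts 4, 3, 3, 3, 3 and 2 higher), and Pdgfra, the defining receptor, had 531 against 443 CPM (adjusted p = 0.649). The fibroblast list had 1 lower gene, Col15a1, given above with the collagens (left-out counts 1, 0, 0, 0, 0 and 1 lower).

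Muscle genes rose in both the mature and the regenerating set. Of 31 muscle fiber genes 13 were higher and 0 lower (left-out counts 22, 3, 24, 0, 0 and 2 higher), 28 were above in every ADU-S100-treated tumor, and Acta1, the actin of muscle fibers, had 789, 214 and 72.8 CPM in ADU-S100-treated tumors, against 0.506, 0.511 and 0.586 CPM in HBSS-treated tumors (log2 fold change 9.38 ± 1.30, adjusted p = 0.0265). Of 19 muscle regeneration genes 12 were higher and 0 lower (left-out counts 10, 10, 11, 5, 5 and 6 higher). The count of fiber genes thus was larger without 17LL or 22LR and smaller without any other tumor. The 10 higher genes with the largest changes outside all lists, such as Hfe2, Csrp3, Eef1a2 and Mybpc2, are known from skeletal or heart muscle as well and had at most 0.167 CPM on average in HBSS-treated tumors. Where muscle-expressed genes are named in other lists (Cryab, Des, Adssl1), the part of muscle RNA was not tested.

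Among antigen-presenting and lymphoid genes, some of MHC class II and B cells were lower. Of 16 MHC class II genes 2 passed, both lower (left-out counts 1, 8, 1, 0, 2 and 0 lower), with a median of -1.28, and 10 of the 16 were below in every ADU-S100-treated tumor. H2-Eb1, a class II chain, had 91.5, 229 and 87.2 CPM in ADU-S100-treated tumors, against 998, 404 and 658 CPM in HBSS-treated tumors, and Cd74, the invariant chain, 209, 578 and 217 CPM in ADU-S100-treated tumors, against 2265, 980.4 and 1543 CPM in HBSS-treated tumors. Neither passed (adjusted p = 0.0670 and 0.0717) although the groups did not overlap, and the HBSS-treated tumors differed among themselves. Of 34 B cell and plasma cell genes 5 were lower and 0 higher (left-out counts 2, 7, 1, 1, 3 and 2 lower), with a median of -1.22. Cd22, an inhibitory receptor of B cells, had 2.63, 4.31 and 3.83 CPM in ADU-S100-treated tumors, against 10.3, 9.42 and 9.78 CPM in HBSS-treated tumors (log2 fold change -1.45 ± 0.21, adjusted p = 0.00845). Immunoglobulin genes together took 0.00417, 0.0374 and 0.00855% of counts in ADU-S100-treated tumors, against 0.131, 0.0600 and 0.132% in HBSS-treated tumors (exact two-sided permutation p = 0.1, the smallest possible). Of 34 resident-type macrophage genes 12 were lower and 0 higher (left-out counts 14, 10, 11, 10, 11 and 9 lower), such as Mgl2, a lectin of alternatively activated macrophages, with 1.26, 0.648 and 0.643 CPM in ADU-S100-treated tumors, against 7.71, 4.84 and 9.00 CPM in HBSS-treated tumors (log2 fold change -3.09 ± 0.36, adjusted p = 0.00316). Of 19 general macrophage genes 4 were higher, Msr1 among them, and 3 lower, Csf1r among them. Their left-out counts were 2, 2, 3, 1, 1 and 4 higher and 3, 3, 3, 2, 3 and 2 lower. Of 22 inflammatory monocyte genes 8 were higher, F10 and Chil3 among them, and 0 lower. Left-out counts there were 9, 5, 8, 5, 5 and 4 higher and 0, 0, 0, 1, 0 and 0 lower. Of 32 dendritic cell genes 1 was higher and 6 lower (left-out counts 2, 1, 1, 1, 1 and 1 higher and 4, 2, 3, 2, 6 and 2 lower). Cd209a, a lectin of monocyte-derived dendritic cells, averaged 0.0383 against 2.30 CPM. By contrast 35 of 44 genes of NK cells and cytotoxic granules (left-out counts 35, 29, 33, 29, 28 and 26 higher) and 11 of 20 neutrophil genes (left-out counts 10, 10, 9, 5, 5 and 4 higher) were higher and 0 lower.

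Genes outside all lists were taken by smallest p. Rarres2, which encodes the chemoattractant chemerin and overlaps Lrrc61, had 39.2, 19.9 and 62.8 CPM in ADU-S100-treated tumors, against 1.86, 1.88 and 1.57 CPM in HBSS-treated tumors (log2 fold change 4.52 ± 0.45, adjusted p = 0.00460). Glrx, glutaredoxin, had 45.3, 43.8 and 61.4 CPM in ADU-S100-treated tumors, against 18.4, 18.1 and 18.1 CPM in HBSS-treated tumors (log2 fold change 1.46 ± 0.15, adjusted p = 0.00162), and Car2, a cytosolic carbonic anhydrase, 6.85, 7.47 and 7.77 CPM in ADU-S100-treated tumors, against 2.204, 1.41 and 2.15 CPM in HBSS-treated tumors (log2 fold change 1.94 ± 0.23, adjusted p = 0.00336). All were higher in every ADU-S100-treated tumor. Of 3 tested genes of the proliferin and prolactin family 2 were higher (left-out counts 2, 2, 2, 2, 2 and 2 higher). Prl2c2, a proliferin, had 53.9, 41.5 and 58.1 CPM in ADU-S100-treated tumors, against 8.54, 7.90 and 11.4 CPM in HBSS-treated tumors (log2 fold change 2.46 ± 0.19, adjusted p = 0.000695), Prl2c3 was higher with 4.64 ± 0.48 and Prl2c5 had 0.241 against 0.129 CPM (adjusted p = 0.408), but near-identical copies could share these reads. On the lower side, Prss23, a secreted serine protease, had 30.3, 31.4 and 31.8 CPM in ADU-S100-treated tumors, against 51.5, 68.1 and 83.7 CPM in HBSS-treated tumors (log2 fold change -1.12 ± 0.17, adjusted p = 0.00887). Slc16a7, the pyruvate and lactate carrier MCT2, had 3.39, 3.77 and 3.56 CPM in ADU-S100-treated tumors, against 9.37, 6.82 and 9.28 CPM in HBSS-treated tumors (log2 fold change -1.25 ± 0.19, adjusted p = 0.0100). Both were below in every ADU-S100-treated tumor. Fcgr2b, the inhibitory Fc receptor, averaged 67.5 against 141 CPM (-1.07 ± 0.14), and Cmah, which makes the sialic acid Neu5Gc, 3.62 against 10.5 CPM (-1.53 ± 0.23).

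The same agent was also given with cyto-IL-15, an interleukin-15 made to stay at the cell membrane, in other tumors, so that combination-treated tumors could be set against cyto-IL-15-treated tumors (n = 3 each), a comparison that shares no tumor with the main comparison. Of the 635 DEGs tested there, 597 (94.02%) had the same direction, 493 of 506 higher and 104 of 129 lower, against 12519 of 18104 of all tested genes (69.15%). Of the DEGs, 237 had an unadjusted p under 0.05 (edgeR) with the same direction there and 0 with the opposite direction. They were 225 of the 506 higher DEGs but only 12 of the 129 lower DEGs. Over all 18104 tested genes, 816 had such a p with the same and 83 with the opposite direction. The count of 237 was 147 without combination tumor 28LL and 157 without cyto-IL-15 tumor 20LL, with at most 1 gene opposite. The spread was wide in those tumors, with a biological coefficient of variation of 0.522. Some of the genes described above had the same sign at similar size, such as Cdkn1a (2.31), Ltb4r1 (3.83) and Lrp6 (-1.12). Others had values nearer 0, such as Hmgcs1 (-0.01), Lpl (0.37), Apoe (0.02) and Entpd1 (0.13), and Alox5 had 0.79. The median of the cholesterol synthesis list was -0.11 there, that of acute phase genes 1.35 and that of pericyte genes 0.55, against -0.43, 0.73 and -0.51 between ADU-S100 and HBSS. Whether the lists differ between the comparisons was not tested.

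**Figure D5:**
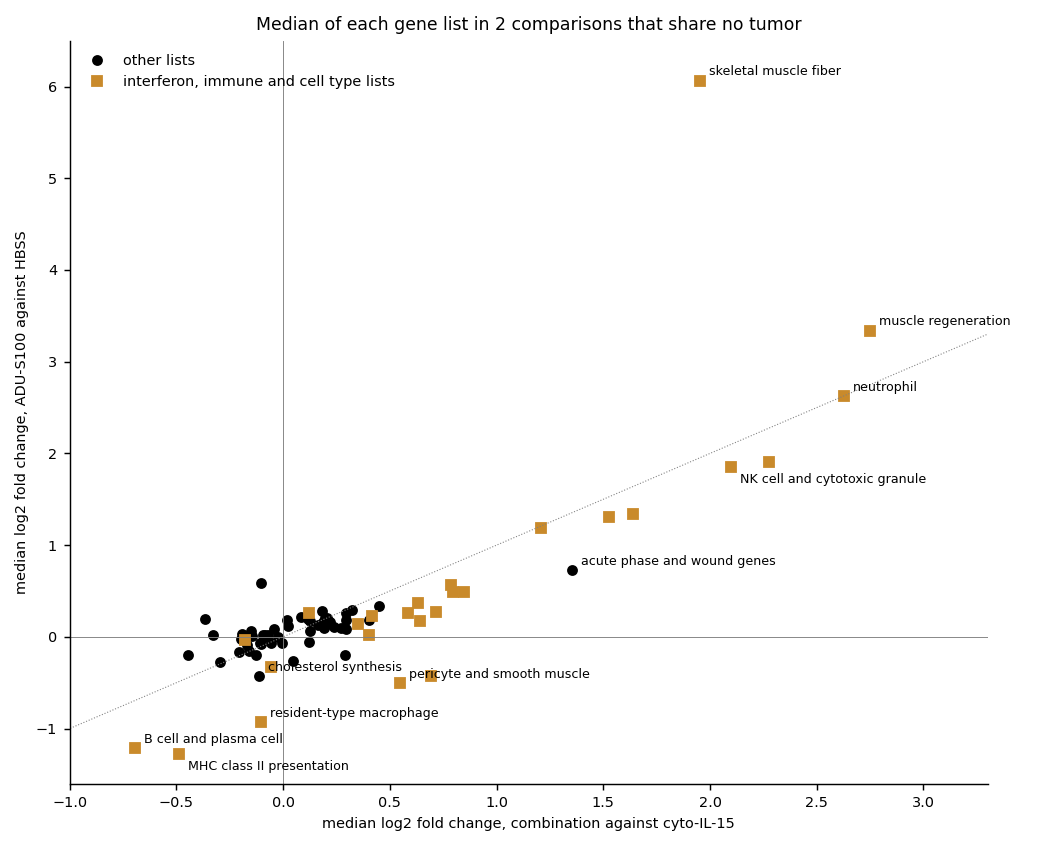
Median log2 fold change of each gene list for ADU-S100 against HBSS (vertical axis) and for combination against cyto-IL-15 (horizontal axis), with squares for interferon, immune and cell type lists, circles for other lists and a dotted line where both are equal (n = 3 tumors in each of the 4 groups). Muscle fiber genes lie at 6.07 and 1.95, acute phase genes at 0.73 and 1.35, and pericyte genes at -0.51 and 0.55.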

How the data were processed

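Bulk tumor RNA was sequenced and the authors deposited raw counts of reads per Ensembl gene, 1 file a tumor, for 49315 genes, of which 49056 matched a symbol in the annotation GENCODE M21. Per the labels, the tools were STAR 2.5.2b, Trimmomatic 0.36, bcl2fastq 2.20, DESeq2 and featureCounts from Subread 1.5.2, with the builds GRCm38 and mm10. Strand and the handling of reads that fit several genes were not given in the sources used here, so close paralogs and overlapping genes are uncertain. Groups came from the treatment labels. Counts of the 6 tumors were filtered (filterByExpr, minimum count 10, minimum total 15), TMM-normalized and tested by the edgeR 4.0.16 quasi-likelihood test with robust dispersion in R 4.3.3. On simulated counts of 18911 genes with 200 changed, 100% of genes changed 4-fold and 55% of those changed 2-fold were recovered. The changed genes were drawn from well-counted genes and every gene had the same dispersion. These rates therefore do not cover genes of low count or of wide spread between tumors. Total counts of 61269250 to 103700199 limit precision less than the 3 tumors a group do, and separate animals were not stated for each tumor, so p-values measure the spread between these samples. The alternatives were other size factors, other filters, all 12 tumors, DESeq2 1.42.0, each tumor left out, and, added after the data were seen, limma 3.58.1 voom and removal of a trend with exon length, in which each tumor's median deviation over 30 length bins was taken out through offsets.

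The members and the 79 gene lists were chosen with earlier results of these data known. Genes were named by a rule, which took from each list up to 6 passing members by smallest p and up to 4 abundant members that did not pass, every member of lists of at most 13 genes, and outside the lists the 25 higher and 25 lower protein-coding DEGs of smallest p and the 10 of largest change each way at a mean of at least 1 CPM. The rest were named after their values were seen, among them Epcam and Krt8 for the label check. Some genes that the rule names are not reported here.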

Additional observations from a re-analysis of the deposited data

How the results depend on the processing

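No paired analysis was possible because the labels hold no replicate numbers (those used here only name the tumors in order), and the only tumor number that the groups share is 22, whose meaning was not given. Of 667 DEGs (520 higher, 147 lower) and 1170 genes passing, leaving out a tumor left 325 to 624 DEGs, 243 to 507 higher and 63 to 117 lower, with 415 to 1045 passing, and the fewest DEGs in all came without HBSS tumor 22R. DESeq2 on the 6 tumors gave 1123 DEGs, 784 higher and 339 lower, with 2289 passing, and on all 12 tumors 306 DEGs, 243 higher and 63 lower, with 346 passing. Without a filter on low counts 304 DEGs were lower and 2171 genes passed. The edgeR fit to all 12 tumors gave 0 DEGs, 0 higher, 0 lower and 0 passing, with a smallest adjusted p of 0.0849 and 1856 genes at an unadjusted p under 0.05. The causes were not tested. In none of these fits did a gene that passed the main test take the other sign. The 630 named genes include genes taken because they did not pass, which had no call to lose. The edgeR fit to all 12 tumors passed 0 genes, so that all 327 named genes with a call lost it there. Among these 327, where tested, 198 lost their call with DESeq2 on all 12 tumors and 1 with DESeq2 on the 6 tumors. Further losses were 21 without a filter, 2 with library totals, 11 with other size factors and 36 with voom. With the length trend removed 69 lost their call, and 63 to 158 when a tumor was left out. The direction in combination against cyto-IL-15 was shared by 568 to 609 DEGs when 1 of those 6 tumors was left out, and 147 to 327 of them had an unadjusted p under 0.05. The 3 tumors a group and the depth leave changes under 2-fold hard to call.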
